A study of Homo sapiens with 16 samples.

Results

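Intronic regulatory regions of protein-coding genes shorter than 200 kb were examined among the regions whose H3K27ac changed in LX-2 cells under inhibition of O-GlcNAc transferase (OGT). H3K27ac is the acetylation of histone H3 at lysine 27, which marks active promoters and enhancers, and it was mapped here by ChIP-seq (immunoprecipitation of chromatin followed by sequencing). LX-2 is an established human hepatic stellate cell line of myofibroblastic phenotype, which limits the comparison to 1 cell line. Control cells were compared with cells kept for 24 h in OSMI-1, an inhibitor of OGT (OGTi), at 50 µM, with 4 H3K27ac libraries in each arm, and no genetic change was introduced in either arm. The deposited data are 2 lists of genome positions (hg38), which are the regions that lost and the regions that gained H3K27ac under OGTi at the adjusted p threshold of 0.15 in the names of the lists. They hold no signal, replicate value or read depth, so regions or host genes, not cultures, are the unit of every test below.

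A region was a member when no base lay within 2500 bp of the 5′ end of any annotated gene, its centre lay outside every exon and inside a protein-coding gene, and the longest such gene, called its host, spanned less than 200 kb. These criteria selected 1490 of the 7130 listed regions, 758 lost and 732 gained, in 991 host genes. Lost regions were 50.9% of the members, and 49.2% of all listed regions. The rule used positions alone and no direction, so that every comparison of lost with gained members is independent of it. Only 1 end per gene was used to exclude promoters. Of the members, 417 (28.0%) lay within 2500 bp of the 5′ end of some transcript, alternative or canonical. A second gene covered the centre of 200 members (13.4%), and 183 members lay outside the introns of the host's canonical transcript.

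Enhancers within introns are read by transcription factors bound to short DNA motifs, and they can act on the gene that contains them or on other genes nearby. TEAD factors recruit the coactivator YAP1, the effector of the Hippo pathway, and serum response factor (SRF) binds the CArG box of actin and contractile genes. AP-1 is the dimer of FOS and JUN proteins, common at enhancers of fibroblasts. ATF4 binds a composite element together with C/EBP proteins and drives the response to amino acid shortage and to stress of the endoplasmic reticulum. Stellate cells become myofibroblasts, which contract and deposit collagen, in injured liver.

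Examples of DNA from lost and gained introns are shown first. Of the motifs more frequent in lost than in gained regions, the TEAD consensus had the smallest adjusted p. It is CATTCC preceded by A or G and followed by A or T, on either strand. For 4 hosts with 5 or more lost regions, a window of 100 bp from the region with the most matches is given on the plus strand of hg38, with the matches in capitals. The window of TLN1 (talin, which links integrins to actin) was added after its values were seen, since it held 3 of the 4 matches of its region.
SMAD3, chr15:67108413-67108512: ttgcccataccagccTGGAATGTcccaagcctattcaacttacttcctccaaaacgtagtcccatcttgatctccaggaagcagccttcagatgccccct
ARNT2, chr15:80478113-80478212: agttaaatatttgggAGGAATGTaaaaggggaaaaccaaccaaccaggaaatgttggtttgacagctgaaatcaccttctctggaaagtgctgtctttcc
SPEF2, chr5:35765795-35765894: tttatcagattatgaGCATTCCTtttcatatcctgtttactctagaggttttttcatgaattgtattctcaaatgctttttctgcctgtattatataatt
VAC14, chr16:70703281-70703380: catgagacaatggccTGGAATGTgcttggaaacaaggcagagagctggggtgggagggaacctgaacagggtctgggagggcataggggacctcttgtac
TLN1, chr9:35728100-35728199: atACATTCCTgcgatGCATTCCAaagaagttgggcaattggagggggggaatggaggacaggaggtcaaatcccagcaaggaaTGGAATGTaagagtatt

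Of the motifs more frequent in gained than in lost regions, the ATF4-C/EBP composite, TGATGCAA on either strand, had the smallest adjusted p. The windows below come from hosts with the most gained regions and mark in capitals the matches to this composite (DAB2 and NEK6) or to AP-1, TGACTCA or TGAGTCA (IGF2BP2 and BCL2L1). AP-1 was frequent in both directions, and its shares did not differ past the threshold in the main test. The window of TRIB3 (a pseudokinase induced by ATF4), also added after its values were seen, held 3 composites within 3 copies of one short repeat. Its region lay at the start of the canonical transcript.
DAB2, chr5:39420275-39420374: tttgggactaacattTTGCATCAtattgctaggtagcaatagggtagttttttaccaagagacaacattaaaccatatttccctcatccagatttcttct
NEK6, chr9:124265723-124265822: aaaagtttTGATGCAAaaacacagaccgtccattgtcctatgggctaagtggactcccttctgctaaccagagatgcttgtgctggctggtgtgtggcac
TRIB3, chr20:380877-380976: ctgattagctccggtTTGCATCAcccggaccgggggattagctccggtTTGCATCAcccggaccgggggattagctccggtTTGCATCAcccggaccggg
IGF2BP2, chr3:185688920-185689019: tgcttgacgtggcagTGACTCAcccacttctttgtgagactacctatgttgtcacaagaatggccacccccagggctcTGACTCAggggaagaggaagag
BCL2L1, chr20:31716500-31716599: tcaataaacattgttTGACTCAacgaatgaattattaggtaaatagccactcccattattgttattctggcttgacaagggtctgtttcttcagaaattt

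Loss and gain were balanced in these introns. No difference past the threshold was found from the other 5640 listed regions, of which 48.7% were lost (odds ratio 1.09, 95% interval 0.971 to 1.22, two-sided Fisher's exact test, p = 0.145), although under 3 of the 5 alternatives run the difference passed this threshold of 0.05. Introns of protein-coding genes of 200 kb or more held 571 lost and 557 gained regions, or 50.6% lost (odds ratio 1.01, 0.865 to 1.18, Fisher's exact p = 0.906). The lost share was 33.8% among the 2219 regions near a gene start, 57.2% in introns of non-coding genes only and 67.1% in intergenic regions. By length of the host, 161 of 299 members were lost under 50 kb, 229 of 480 from 50 to 100 kb, 208 of 402 from 100 to 150 kb and 160 of 309 from 150 to 200 kb, with no trend visible. At the limit itself, CLIC5 (199.5 kb) held 1 lost region, NEDD9 (199.1 kb) 1 of each direction and ASAP2 (198.9 kb) 3 gained regions. Just outside it, RFTN1 (200.5 kb) held 1 of each direction and LIPA (200.99 kb) 3 gained regions.

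Most hosts changed in a single direction. Of the 991 hosts, 484 held lost regions only, 456 gained regions only and 51 both, and 707 held a single region. Of the 284 hosts with several regions, 233 (82.0%) held a single direction. RAD18, a ubiquitin ligase of DNA damage tolerance, held 10 lost regions, 5 of which lay outside the introns of its canonical transcript. ARNT2, a partner of hypoxia-inducible factors and of the dioxin receptor, held 8 lost regions. SMAD3, a transcription factor activated by TGF-β receptors, held 7 lost and 1 gained region. SPEF2 followed with 6, and VAC14, HSF2BP, MBNL2 and KCNU1 with 5 each.

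BCL2L1, which encodes an inhibitor of apoptosis, held the most gained regions. Its 8 regions spanned 43.7 kb on chromosome 20 (31674196 to 31717917) in the last of 2 introns, 6 of them shared with the antisense gene BCL2L1-AS1, and covered 27.2% of the gene. PXN (paxillin, a focal adhesion scaffold) and RND3 (a small GTPase that opposes RhoA) held 7 gained regions each, and 6 of those in RND3 lay outside the introns of its canonical transcript. COL5A2 (a chain of type V collagen), IGF2BP2 (an RNA-binding protein) and DAB2 (an endocytic adaptor) held 6 each. ASB1, NEK6, CRMP1 and PPFIBP1 held 5 each. The 5 regions of CRMP1 lay at the same time in EVC, and all of them outside the introns of the canonical CRMP1 transcript. Gained regions of ASB1 abutted each other over 11.1 kb, or 43.4% of the gene, so the count of regions is partly a count of bins in 1 domain.

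Neighbouring regions within a host mostly shared their direction, and the share fell with distance. Of 230 neighbouring pairs with centres under 5 kb apart, 97.8% had one direction. This share was 89.1% of 138 pairs at 5 to 20 kb, 73.9% of 88 pairs at 20 to 50 kb and 67.4% of 43 pairs at 50 kb or more. Of the closest pairs, 165 abutted without a gap, all of one direction.

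The promoter of the host tended to change with its introns. A listed region of a single direction lay within 2500 bp of the start of 150 hosts with introns of a single direction. Of 61 such hosts with lost introns, 42 (68.9%) had a lost promoter region, and of 89 hosts with gained introns, 84 (94.4%) had a gained one (odds ratio 37.1, 95% interval 13.0 to 106.4, two-sided Fisher's exact test, p = 5.67e-17). The odds ratio was 28.9 (9.03 to 92.4) with the 119 hosts whose members lay 10 kb or more from the start, a restriction chosen after seeing the data. For most hosts the promoter was in neither list: this held for 423 of 484 hosts with lost introns (87.4%) and for 367 of 456 hosts with gained introns (80.5%). These shares stand beside 750 lost and 1469 gained among all listed regions near a gene start. LMOD1, PDGFRB and CREB3L1 lost H3K27ac at their promoter and in their introns, and BCL2L1, PXN, RND3, EGFR and YAP1 gained it at both. VAC14 went the other way, with 5 lost intronic regions and a gained promoter region.

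**Figure D1:**
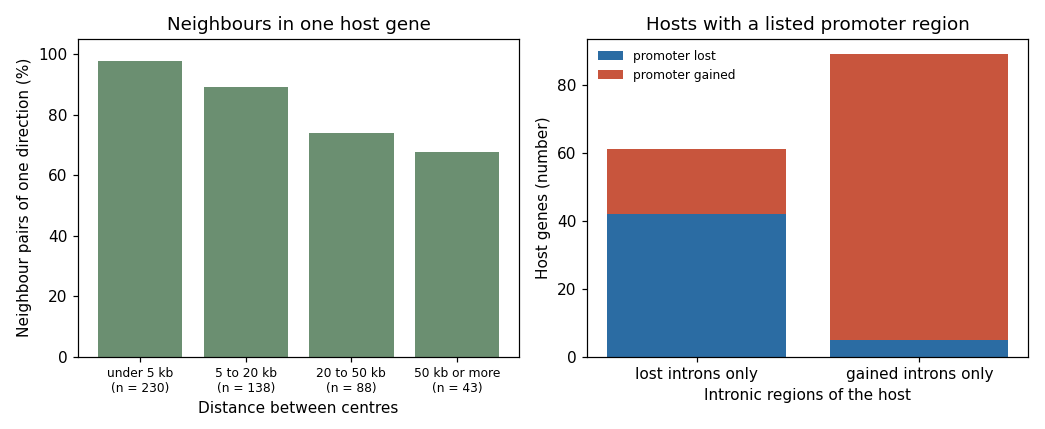
Left, share of neighbouring regions in one host gene that have the same direction (y axis, percent) by the distance between their centres, falling from 97.8% to 67.4%. Right, number of host genes with a listed promoter region, by the direction of their intronic regions (x axis) and of the promoter (colour): 42 of 61 hosts with lost introns and 84 of 89 with gained introns have a promoter of the same direction.

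Among the 51 hosts with both directions, the region nearest to the gene start was gained in 33 and lost in 18, whereas 73 of all 157 regions of these hosts were gained. In SMAD3, a gained region lay 12.3 kb from the start and 7 lost regions 44.5 to 116.2 kb from it. TRAM2, which assists collagen synthesis, had a gained region at 10.5 kb and 5 lost regions from 28.3 to 40.0 kb. NEK6, a mitotic kinase, differed, with a lost region at 39.7 kb between gained regions at 28.7 and 49.3 kb. In ADAM9, a membrane protease, a lost region at 8.13 kb lay between gained regions at 4.45 and 30.2 kb. These distances run from the gene start to the centre of the region.

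Lost regions lay deeper in their hosts than gained ones. The median distance from the host start was 39959 bp for lost regions (middle 50% from 19392 to 74978 bp) and 32578 bp for gained regions (15956 to 64450 bp). More lost regions lay beyond the median of all members (53.8% against 46.0%, odds ratio 1.37, 1.11 to 1.68, Fisher's exact p = 0.00313). Accordingly, 42.2% of the 206 members under 10 kb from the start, 49.1% of the 709 members at 10 to 50 kb and 56.2% of the 575 members at 50 kb or more were lost. The first intron held 210 of 676 lost regions (31.1%) and 276 of 631 gained regions (43.7%) that lay in an intron of the canonical transcript (odds ratio 0.580, 0.462 to 0.727, Fisher's exact p = 2.56e-06). Beyond 10 kb from the start the shares were 26.7% and 37.9% (odds ratio 0.595, Fisher's exact p = 5.37e-05). The length of the host showed no difference past the threshold, with medians of 96807 and 95886 bp (odds ratio 1.04, 0.852 to 1.28, Fisher's exact p = 0.679). Host positions that met the same criteria are a reference for these values. Of 509870 windows of 1000 bp in such introns of hg38, 24.8% of those in a canonical intron lay in the first, and the median distance from the host start was 36654 bp. The difference in distance was no longer past the threshold in hosts under 100 kb (odds ratio 1.16), whereas that in first introns was.

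Lost regions were also richer in G and C. Median GC content was 48.8% (middle 50% from 43.9% to 54.6%) in lost and 43.5% (39.2% to 48.98%) in gained regions. Of lost regions, 62.0% were above the median of all members, against 37.6% of gained regions (odds ratio 2.71, 2.20 to 3.34, Fisher's exact p = 4.25e-21). When members were ranked by GC content and divided into 4 classes of equal size, 28.4%, 48.9%, 57.5% and 68.6% were lost from the lowest class to the highest. The surroundings differed in the same direction, since the 50 kb on either side had a median GC content of 46.0% around lost and 43.0% around gained regions (above the median of members in 59.9% against 39.8%, odds ratio 2.26, Fisher's exact p = 9.41e-15). Relative to these flanks, lost regions were richer by a median of 2.82 percentage points and gained regions by 0.51 (odds ratio 2.50, Fisher's exact p = 3.61e-18). In fixed windows of 1000 bp around the centre the medians were 49.0% for lost and 42.8% for gained regions, against 41.9% over the comparable intron windows. The CpG ratio, observed over expected CpG dinucleotides, had medians of 0.212 and 0.204 (odds ratio 1.16, 0.949 to 1.42, Fisher's exact p = 0.162). With GC content and width as covariates, its difference turned round and passed the threshold (odds ratio 0.763). Lost regions were wider, with a median of 1970.5 bp against 1754.5 bp (odds ratio 1.44, 1.18 to 1.77, Fisher's exact p = 0.000512), though not in hosts under 100 kb (odds ratio 1.07).

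**Figure D2:**
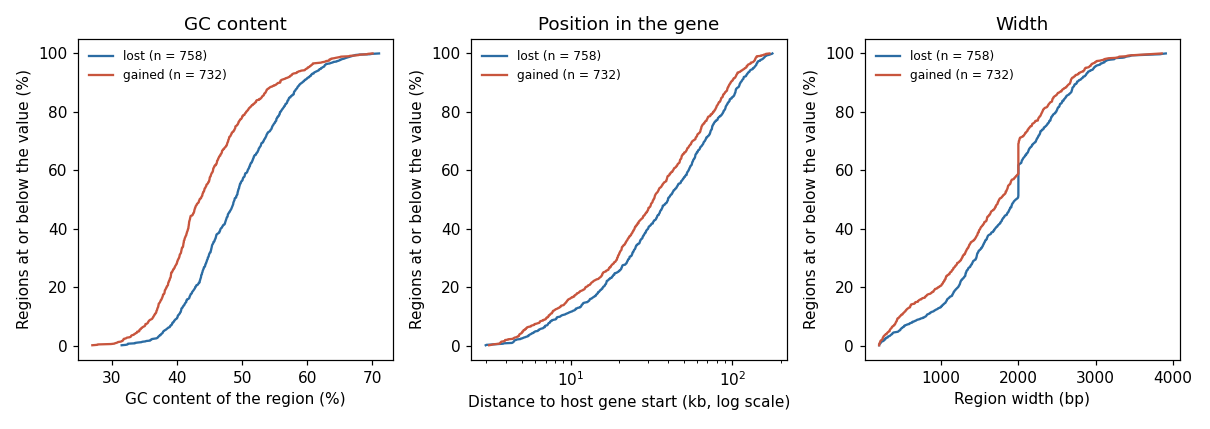
Cumulative share of regions (y axis, percent) at or below a given GC content (left, percent), distance to the host gene start (middle, kb, log scale) and width (right, bp) for 758 lost (blue) and 732 gained (red) regions. The lost curve lies to the right in each, most clearly for GC content, where the medians are 48.8% and 43.5%, and the step at 2000 bp in the width plot is the bin size.

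Among lost regions, 349 of 758 (46.0%) held the TEAD consensus, compared with 214 of 732 gained ones (29.2%), which gave an odds ratio of 2.07 (95% interval 1.67 to 2.56). The p adjusted by Benjamini-Hochberg over the 28 motifs examined was 6.03e-10 (Fisher's exact test). Several matches were also more frequent, since 83 lost and 30 gained regions held 2 matches and 23 and 9 regions held 3 or more. The difference was seen in each of the 4 GC classes, with odds ratios of 2.22, 2.31, 2.46 and 2.29. It persisted with width and GC content as covariates (odds ratio 2.17, 1.71 to 2.76). Matches were more frequent around the centre of lost regions than farther out. Rates were counted by distance from the centre and not cut at region ends, so the DNA at 1000 to 1500 bp lay outside most regions. For lost regions the rate was 0.463 matches per kb within 500 bp of the centre and 0.211 at 1000 to 1500 bp. For gained regions these rates were 0.220 and 0.197, and comparable intron windows held 0.187 per kb. In windows of 1000 bp around the centre, 36.7% of lost and 18.3% of gained regions had a match, against 16.9% of the comparable windows. The windows of SMAD3, ARNT2, SPEF2 and VAC14 printed above hold 1 of these matches each.

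The SRF CArG box followed the same pattern at a lower frequency. Its share was 15.2% among lost and 8.47% among gained regions (odds ratio 1.93, 1.39 to 2.68, adjusted p = 0.000383 by Fisher's exact test), and the odds ratio was 2.15 with covariates. Within 500 bp of the centre lost regions held 0.112 and gained regions 0.0615 matches per kb, against 0.0585 in comparable windows. TEAD and SRF matches were present together in 63 lost (8.31%) and 24 gained regions (3.28%). Whether this exceeded what their separate shares give was not tested. The NF-kB consensus (27.8% against 17.8%, odds ratio 1.79, adjusted p = 2.52e-05 in the exact test), the E-boxes CAGCTG (66.2% against 51.6%, odds ratio 1.84) and CACCTG (76.8% against 67.6%, 1.58), the SP motif GGGGCGG (18.5% against 13.7%, 1.43) and the SMAD motif CAGACA (73.6% against 67.3%, 1.35) were also more frequent in lost regions. None of these 5 passed the threshold once width and GC content entered as covariates, and the odds ratios for CACCTG (0.917), SP (0.707) and SMAD (0.998) then fell below 1.

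The ATF4-C/EBP composite showed the opposite distribution. Only 26 of 758 lost regions (3.43%) carried it, against 86 of 732 gained ones (11.7%). The odds ratio was 0.267 (0.170 to 0.419, adjusted p = 1.13e-08 by Fisher's exact test), and 0.277 with covariates. Around gained regions there were 0.111 matches per kb within 500 bp of the centre and 0.0369 at 1000 to 1500 bp, mostly outside them. Lost regions held 0.0172 at the centre, below the 0.0308 of comparable windows. In 1000 bp around the centre, the shares were 10.5% of gained regions, 1.72% of lost regions and 3.02% of comparable windows. Of the 86 gained regions with a match, 18 lay within 2500 bp of the start of some transcript, among them the TRIB3 region printed above. FOX motifs (TGTTTAC) were more frequent in gained regions as well (23.1% against 16.9% of lost regions, odds ratio 0.677, adjusted p = 0.0114 by Fisher's exact test), but not past the threshold under 4 alternatives, covariates included (0.732).

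AP-1 matches were frequent in both directions. TGACTCA or TGAGTCA occurred in 44.3% of the lost members and 48.1% of the gained, a difference not past the threshold (odds ratio 0.860, 0.701 to 1.05, adjusted p = 0.292 by Fisher's exact test). These letters can overlap the NRF2 motif, which did not pass the threshold either (odds ratio 1.08). Around the centre both directions exceeded comparable windows, at 0.391 matches per kb in lost and 0.536 in gained regions, against 0.157. In the central 1000 bp, cut at the ends of narrower regions (30.3% against 36.3%, odds ratio 0.763), and with covariates (0.688), AP-1 was more frequent in gained regions past the threshold. The windows given above for TEAD and ATF4-C/EBP were not cut in this way, and in these AP-1 occurred in 33.0% of lost and 41.0% of gained regions. TEAD and AP-1 within 100 bp of each other occurred in 4.62% of the lost members and 3.42% of the gained (odds ratio 1.37, 0.811 to 2.31, Fisher's exact p = 0.292). Of the 28 motifs, 7 thus passed the threshold towards loss in the main setting, 2 towards gain, and 19 in neither direction. In the cut central 1000 bp, the C/EBP motif (odds ratio 0.715) and the GATA motif (0.767) passed it towards gain as well. With covariates neither did (0.927 and 0.945).

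**Figure D3:**
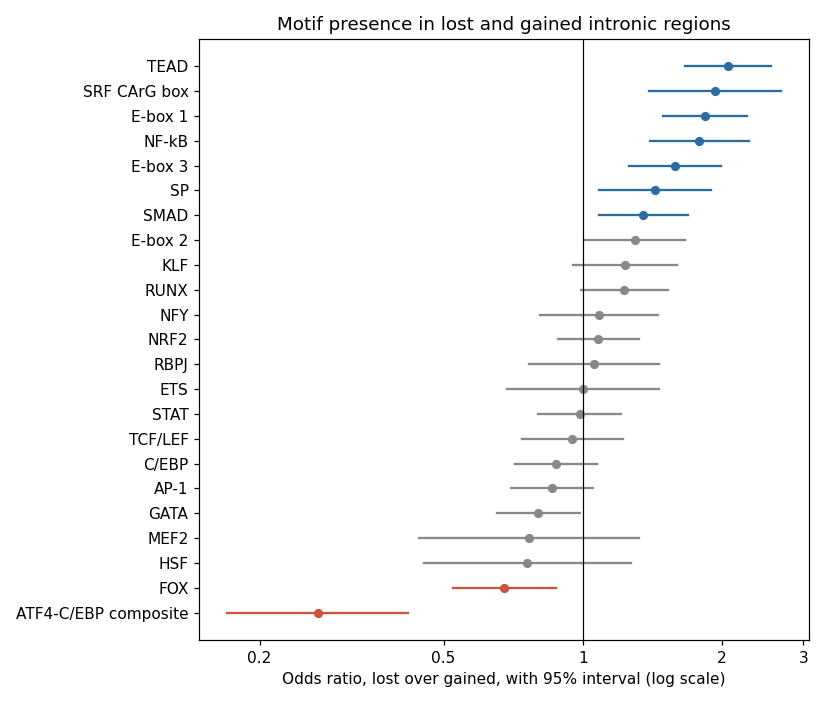
Odds ratio (x axis, log scale) of holding a motif in lost over gained intronic regions, with 95% intervals, for the 23 motifs found in at least 30 regions. Blue and red points passed an adjusted p of 0.05 and grey points did not; E-box 1 is CAGCTG, E-box 2 is the palindrome of MYC and USF, and E-box 3 is CACCTG. TEAD has the highest odds ratio (2.07) and the ATF4-C/EBP composite the lowest (0.267).

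**Figure D4:**
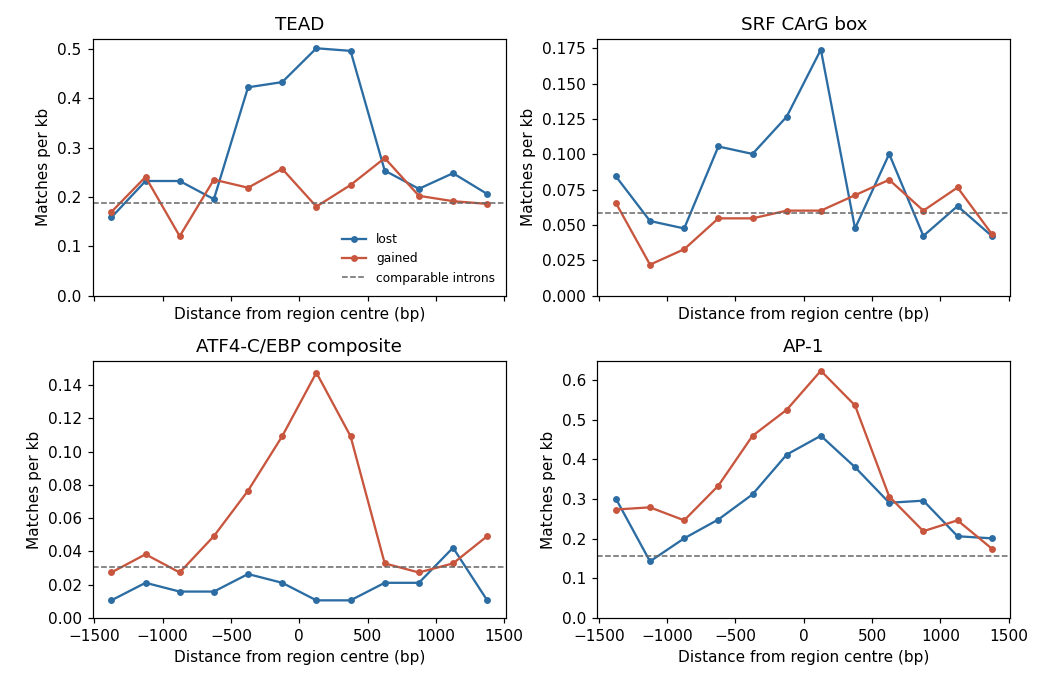
Matches per kb (y axis) in bins of 250 bp by distance from the region centre (x axis, bp) for 758 lost (blue) and 732 gained (red) regions. Bins were not cut at region ends, so the outermost ones lie outside most regions. The dashed line is the rate in comparable intron windows. TEAD and SRF matches peak at the centre of lost regions, ATF4-C/EBP matches at the centre of gained regions, and AP-1 matches at the centre of both.

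These differences were compared with those in other introns. In introns of protein-coding genes of 200 kb or more, TEAD matches occurred at a frequency of 42.4% among lost and 33.8% among gained regions (odds ratio 1.44), so the odds ratio of the shorter genes was 1.43 times as large (95% interval 1.04 to 1.97, logistic regression with errors clustered by host gene). This interval excluded 1, but the ratio was 1.24 with 1 region per host gene and direction and 1.09 with hosts under 100 kb, neither past the threshold. In introns of non-coding genes only, the TEAD odds ratio was 2.25. ATF4-C/EBP odds ratios were 0.409 in long and 0.311 in non-coding genes, and those for SRF 2.33 and 1.59. Lost regions of long genes exceeded the median GC content of the members in 42.4% and gained ones in 13.5% of cases (odds ratio 4.73), and the odds ratio of the shorter genes was 0.574 times that (0.368 to 0.895). Against introns of non-coding genes only, where these shares were 27.5% and 19.5% (odds ratio 1.57), the ratio lay on the other side of 1, at 1.73 (1.02 to 2.93). First introns of long genes held 18.6% of their lost and 27.1% of their gained regions (odds ratio 0.617). Over the 13 differences between classes tested in this way, of which all but that of TEAD against long genes were added after seeing the data, none passed the threshold after Benjamini-Hochberg adjustment, so none of these features was shown to be particular to shorter genes.

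Genes of the contractile apparatus held regions of both directions. The counts that follow carry no test and are read beside the 50.9% of all members that were lost. The contractile genes reported here held 19 lost and 13 gained regions (59.4% lost), and 7 of the gained regions were those of RND3. SYNPO (synaptopodin, an actin-binding protein, with 3 lost regions) and LMOD1 (leiomodin 1, which nucleates actin in smooth muscle, with 3 lost regions) held lost regions only, whereas RND3, DIAPH1 (a formin, 1 region) and ARHGEF2 (a RhoA activator, 1 region) held gained regions. The regions of SYNPO and that of DIAPH1 lay near the start of some transcript. Enzymes that crosslink and remodel matrix held 14 lost and 9 gained regions in 10 hosts, among them LOXL2 (a lysyl oxidase that crosslinks collagen, 3 lost and 1 gained), ADAM19 (2 lost) and TIMP2 (an inhibitor of metalloproteinases, 3 gained). The gained region of LOXL2 lay at the same time in ENTPD4, outside the introns of the canonical LOXL2 transcript.

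Adhesion and Hippo pathway genes were hosts mostly of gained regions. Integrin and focal adhesion genes held 22 gained and 10 lost regions in 15 hosts (31.2% lost, and 40.0% without PXN). ITGA2, an integrin subunit that binds collagen, held 3 gained regions, CD44, a hyaluronan receptor, 2 gained regions, and LIMS2, a partner of integrin-linked kinase, 2 lost regions. Genes of the Hippo pathway and targets of YAP and TEAD held 17 gained and 3 lost regions in 11 hosts (15% lost). NT5E, an ectonucleotidase, held 5 gained regions, AMOTL1, an angiomotin that binds YAP1, 3 and YAP1 itself 2, one in its second intron (chr11:102138096-102140109, 1 TEAD match) and one in its seventh (chr11:102225086-102226783, 1 TEAD match). CRIM1 (2 lost) and TEAD3 (1 lost) were the exceptions. Most of these hosts thus gained H3K27ac, whereas the TEAD motif was more frequent in lost regions.

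Collagen genes were divided. Collagens and matrix proteins held 14 gained and 9 lost regions in 13 hosts, 8 of them with lost and 5 with gained regions (39.1% lost, and 52.9% without COL5A2). The 6 gained regions of COL5A2 lay 81.3 to 120.7 kb from its start and had a low GC content, from 26.98% to 37.4%. COL3A1, which encodes type III collagen and lies beside it on chromosome 2, held 2 gained regions in introns 1 and 32, the latter within 2500 bp of the start of a transcript. COL8A1 held 4 gained regions. Basement membrane collagens were on the other side, with COL4A1 (1 lost), COL15A1 (1 lost) and COL18A1 (2 lost). PDGFRB, the receptor through which platelet-derived growth factor drives stellate cell proliferation, held 3 abutting lost regions in its first intron, each with 1 TEAD match, and 2 of them near the start of an alternative transcript.

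Signalling genes showed contrasts within pathways. In TGF-β and BMP signalling, 11 lost and 9 gained regions lay in 11 hosts, but 7 of the lost regions were those of SMAD3 and 3 those of SMAD6, an inhibitor of BMP signalling that lies near SMAD3 on chromosome 15. Of the other 9 hosts, 8 held a gained region only, such as TGIF1 and ACVR1B, and SKI held 1 lost region. The TGIF1 region lay near the start of some transcript and outside the introns of the canonical one. Genes listed under PDGF, EGF and FGF receptor signalling held 12 gained and 6 lost regions. This list also holds genes outside these families, such as VEGFC (2 gained), IGFBP7 (2 lost), GAB1 (1 gained) and DUSP4 (1 gained). Within the families, EGFR (3 gained) and EREG (1 gained) were on one side and PDGFRB and EGF (1 lost) on the other. NF-kB and cytokine genes held 5 gained and no lost regions, in IKBKB, OSMR and IL1RAP. WNT genes held 4 lost and 2 gained regions and AP-1 and MAP kinase genes 2 and 1.

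Stress response genes were hosts mostly of gained regions. Genes of the ATF4, amino acid and unfolded protein response held 11 gained and 6 lost regions in 10 hosts (35.3% lost, and 46.2% without TRIB3). Of these hosts, 4 held lost regions only and 6 gained regions only. TRIB3 held 4 gained regions, of which that with 3 ATF4-C/EBP composites lay at chr20:379801-381270. Its centre was upstream of the first exon of the canonical transcript, and the abutting gained region (chr20:381271-383105) was centred in intron 1. It therefore lay at the start of the canonical transcript rather than inside an intron of it. SLC38A1 (an amino acid transporter) held 2 gained regions and SLC7A11 (the cystine transporter, also counted in the NRF2 list) 1. CREB3L1, a membrane-bound factor that activates collagen genes, held 3 lost regions in its first intron. Genes of the NRF2 and heat shock response held 9 gained and 2 lost regions, with 4 gained in TXNRD1 (thioredoxin reductase), 1 in SQSTM1 and both lost ones in BAG3. The SQSTM1 region lay near the start of some transcript and outside the introns of the canonical one. In the O-GlcNAc and hexosamine pathway, OGT itself held 1 gained region of 3304 bp in intron 3 of 21 (chrX:71540981-71544284), with 4 AP-1 matches and 1 ATF4-C/EBP composite. HK1 held 2 gained and SLC2A1, the glucose transporter GLUT1, 2 lost regions. OGA, PPARG, ACTA2, COL1A1, COL1A2, TEAD4, ANKRD1 and CCND1, all under 200 kb, held no member.

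Among the remaining lists, mesenchymal transcription factors held 5 lost and 5 gained regions (ETS1 3 gained and 1 lost, FLI1 2 lost), retinoid and lipid genes 4 and 3 (RARA 2 lost), chromatin acetylation genes 2 and 3, and cell cycle and apoptosis genes 9 gained regions, 8 of them in BCL2L1. The gene lists used by the study are no independent evidence of direction. Those of fibrosis and myofibroblast identity came from earlier work and were tested by the study in the same cells. That of O-GlcNAcylated regulators was derived from LX-2 cells. These gene lists held 24 lost and 19 gained regions (fibrogenic genes of stellate cells), 7 and 9 (liver fibrosis matrisome), 2 and 15 (liver fibrosis), 29 and 48 (myofibroblast identity), 13 and 4 (heart, kidney and lung fibrosis) and 18 and 30 (O-GlcNAcylated transcriptional regulators). The deposited lists of regions hold changed positions only, so the identity of the cells could not be checked against expression. Of stellate cell and fibroblast markers, PDGFRB and COL3A1 were hosts, and no hepatocyte marker was. The markers of other cell types that were hosts held lost regions alone, with 4 in the endothelial genes CDH5, VWF and PECAM1, 4 in the leukocyte genes PTPRC and CSF1R and 2 in the epithelial gene KRT8, and their part in the results was not tested.

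By chromosome, members were lost less often on chromosome 12 (31 lost, 66 gained, odds ratio 0.430, Fisher's exact test against the other chromosomes, adjusted p = 0.0031 over 23 chromosomes) and more often on chromosome 16 (38 lost, 16 gained, odds ratio 2.36, adjusted p = 0.0403). No chromosome passed the threshold in this exact test once abutting regions were joined (adjusted p = 0.157 for both). The same was true with 1 region per host gene and direction, where chromosome 12 held 24 lost and 39 gained regions and chromosome 16 held 25 and 14. Chromosome 16 also missed the threshold with a window of 5000 bp (adjusted p = 0.194 in the exact test), with hosts under 100 kb (0.745) and with exons of protein-coding genes only (0.0580), whereas chromosome 12 passed it in these 3 settings. With the window of 5000 bp, chromosome 2 passed it instead (46 lost, 77 gained, adjusted p = 0.0195 in the exact test).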

How the data were processed

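H3K27ac ChIP-seq was done in LX-2 cells with 4 libraries in each arm. The other 8 of the 16 samples, input DNA and column purified chromatin libraries, were not used here. The study's methods state that reads were aligned to hg38 with Chromap, peaks were called per library against input with MACS2 (version 2.1.1.20160309 in the submitters' processing notes, which also name deepTools 2.0) after removal of duplicates and blacklisted regions, and MAnorm2 divided peaks into bins and tested the arms. One wide domain can therefore be listed as several abutting regions. The authors deposited 2 lists with chromosome, start and end only. The threshold in their names is 0.15, whereas the methods give a stricter one. Read depth is unknown.

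Genes came from GENCODE release 44 and sequences from hg38, with starts counted from 1. Shares were compared by two-sided Fisher's exact tests with Woolf 95% intervals (scipy 1.17.1), continuous measures as the share above the median of all members, 28 motifs on both strands with Benjamini-Hochberg adjustment, and covariates by logistic regression clustered by host gene (statsmodels 0.14.6). On simulated data, planted words of the TEAD pattern were found again and the logistic regression recovered a planted odds ratio. The other motifs were not checked in this way, and the exact test had no pass condition. Comparable intron windows are all 1000 bp windows of hg38 that meet the position criteria. Genes named are the 10 hosts per direction with the most regions, genes followed by the study, up to 3 hosts per direction and gene list with the largest summed width, and the 5 hosts with both directions and the most regions. Other genes named were chosen after their values were seen. A few genes that met this rule are not reported here, and the counts for contractile genes leave them out. The regions, lists and tests were chosen with earlier results of these data known.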

Additional observations from a re-analysis of the deposited data

How the results depend on the processing

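No paired analysis was possible because neither deposited list carries a value for any single library. Leaving out a replicate and a stricter threshold could not be run for the same reason, and the share of repeats was not run, since the reference sequence does not mark repeats. Of 166 values under an alternative, 130 kept their direction and their side of the threshold (or stayed within 1.5 times the main count). Differences in GC content, first intron share, the TEAD, SRF and ATF4-C/EBP motifs and the promoter of the host did so under every alternative run for them.

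The lost share against other listed regions passed the threshold with abutting regions joined (odds ratio 1.13), with the 5′ ends of all transcripts (1.17) and with a window of 5000 bp (1.15). Against long genes it was 0.961 with hosts under 100 kb. In these hosts width (1.07), distance to the host start (1.16) and the TEAD difference against long genes (1.09) did not pass the threshold, and 5 motifs did. With 1 region per host gene and direction the TEAD difference against long genes was 1.24. Host length turned to 0.891 with 1 region per host gene and direction, 0.785 with hosts under 100 kb and 0.968 with the shortest host. The CpG ratio passed the threshold with all transcripts (1.35) and in the central 1000 bp (1.27) and turned with covariates (0.763), where 4 motifs passed it and the SP (0.707), CACCTG (0.917) and SMAD (0.998) odds ratios turned. TEAD and AP-1 within 100 bp turned with all transcripts (0.951). The number of chromosomes past the threshold was 0 with abutting regions joined, 0 with 1 region per host gene and direction, and 1 with exons of protein-coding genes only, and the 2 found with a window of 5000 bp and the 2 found with hosts under 100 kb did not include chromosome 16. The causes were not tested, beyond the smaller number of regions in several alternatives (779 with hosts under 100 kb and 1073 with all transcripts, of 1490).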
